A study of Danio rerio with 8 samples.

Results

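Besides annotated genes, the RNA of dome-stage zebrafish embryos mapped to many stretches of the genome that carried no gene name. A total of 3861 of the 33843 loci in the expression table were of this kind, and the other 29982 had a name. They were taken as every locus whose gene field was empty, leaving out the mitochondrial genome, where there were 0 such loci. No measured value was used to choose them. Each is known only by its position on the Zv9 build, and the sources used here give neither its strand nor its exons.

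The RNA came from whole embryos at the dome stage, a blastula stage soon after the zygotic genome becomes active. Treated embryos had 20 µM SU5402, a small molecule that blocks the kinase activity of FGF receptors, in their medium from the stage of 2 cells, and control embryos had the same volume of its solvent DMSO over the same period. No strain, genotype or clutch is given in the sources used here, and SU5402 was given to whole embryos through their medium. There were 2 RNA-seq samples in each group, which the authors pooled into 1 FPKM value per condition, so no value below has a replicate error. Nothing in the labels says whether the samples came from separate clutches, so the deposited p-values reflect the variation between these samples alone, and that may be technical. FPKM scales the fragments of a locus to the length of its transcript and to the size of the library, and the depth of each library is unknown. The series also has 4 ATAC-seq samples, not analysed here. The stage label was checked against genes of the blastula: nanog, a pluripotency factor, was at 1106 FPKM in control and 1178 in SU5402, and pou5f1 was at 461 and 405. Also near each other were mxtx2 (104 and 94.5), vox (68.0 and 62.4) and sox3 (68.2 and 56.5). Lower in SU5402 were gsc (9.50 and 0.866) and ntla (20.3 and 3.25), and higher were krt8 (69.2 and 106) and zar1 (16.8 and 26.9). Whether both conditions were at exactly the same stage was not tested. Of 43 rows for hox genes, which come on later, 2 reached 1 FPKM in either condition and the highest was at 1.62.

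An assembled locus is a stretch of the genome where a transcript assembler joined overlapping reads into a transcript. Such loci without a name can be long noncoding RNAs, unannotated ends or exons of a neighbouring gene, transcribed repeats, genes that a given annotation had missed, or pieces of precursor RNA. Early embryos hold RNA laid down by the mother, which is cleared as the zygotic genome begins to be transcribed. Which loci are zygotic cannot be told from a single stage.

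The unnamed loci had a far smaller median length than named ones, and many were at a low level, as were many named loci. Their median length was 1212 bp, from 99 to 573214 bp, against 14867.5 bp for named loci. They lay on all 25 chromosomes (3546 loci) and on 165 unplaced scaffolds (315 loci). At least 1 FPKM was reached by 2103 of them in control and by 2280 in SU5402, and 240 were listed at 0 in both. The mean of both conditions was under 2 FPKM for 2226 of the 3861 unnamed and 19214 of the 29982 named loci. Together the unnamed loci held 6.94% of the summed FPKM of the table in control and 8.92% in SU5402. The authors' test had been run on 1533 of the unnamed loci, and the lowest level of a tested unnamed locus in its higher condition was 0.947 FPKM. A locus that is low in one condition passed that limit only through the other, so the share of loci higher in SU5402 is given for the main classes over all loci above 0 as well.

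More unnamed loci were higher than lower in SU5402 embryos. At a q of at most 0.05 in the authors' deposited table, 110 of the 1533 tested unnamed loci (7.18%) were called different, against 5.64% of all 12757 tested loci. Of these, 74 (4.83%) were higher in SU5402, against 3.58% of all tested loci, and 36 (2.35%) were lower, against 2.06%. When the deposited p-values were adjusted by the Benjamini-Hochberg method over all 12757 tested loci, a stricter reading that leaves 1.65% of all tested loci called, 38 unnamed loci were called. That reading called 26 unnamed loci higher, where it called 0.996% of all tested loci higher, and 12 lower, where it called 0.651%. No test of the difference between unnamed and named loci was made. In RNA from whole embryos, fewer cells that hold a transcript and less of it per cell cannot be told apart.

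The same direction was seen over the tested loci as a whole. The median log2 change of tested unnamed loci, with 0.1 FPKM added to both values, was 0.17 with quartiles of -0.33 and 0.76, against 0.04 with quartiles of -0.22 and 0.32 for all tested loci. SU5402 was the higher condition for 60.0% of tested unnamed loci and for 53.6% of tested named loci. Over all loci above 0 in either condition, tested or not, it was the higher one for 56.9% of 3621 unnamed and 53.0% of 20811 named loci. The median level of tested unnamed loci was 5.28 FPKM in control and 5.99 in SU5402. Among called loci above 0 in both conditions, the 62 higher ones had a median fold of 2.33 (1.45 to 11.1) and the 31 lower ones a median fold of 2.41 (1.49 to 15.1).

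**Figure D1:**
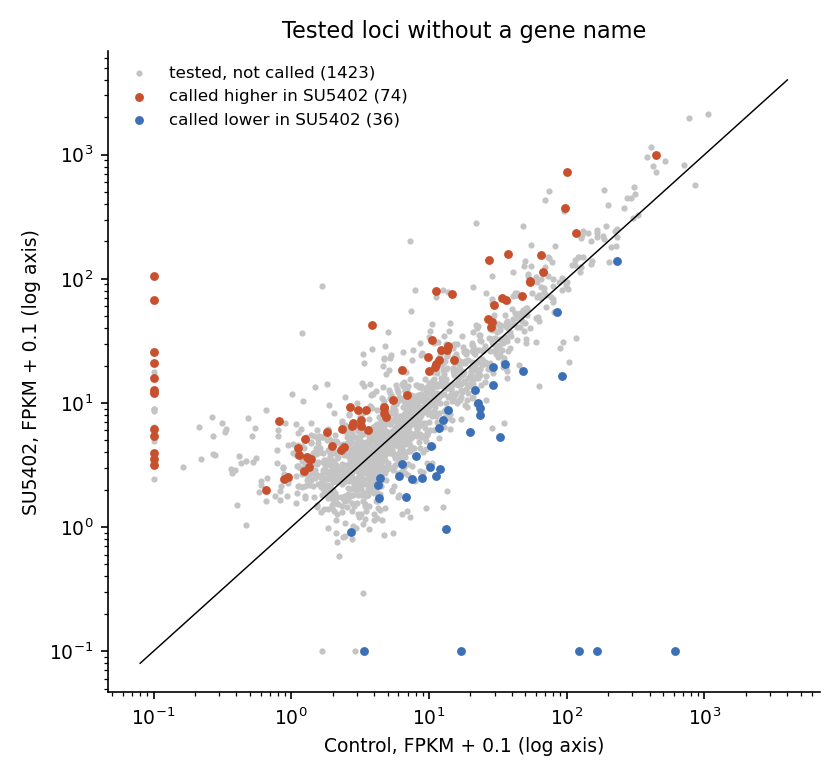
FPKM plus 0.1 in control (x axis) and SU5402 (y axis) of the 1533 tested loci without a gene name, both on log axes, with 1 point per locus and a line of equal level. The 74 loci called higher in SU5402 (red) lie above the line and the 36 called lower (blue) below it; points on the left and lower edges are listed at 0 in 1 condition.

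Among called loci that reached 1 FPKM in each condition, the largest rise was at chr4:36201161-36201686, a stretch of 526 bp. It went from 3.78 FPKM in control to 42.2 in SU5402, 11.1-fold (q = 0.00343 in the authors' deposited table). A longer locus only 206 bp before it, chr4:36195447-36200954, was also called higher, with 4.79 and 7.54 FPKM. The second, Zv9_scaffold3522:12555-12737, stood at 99.6 FPKM in control and 728 in SU5402, 7.31-fold (q = 0.000383 in the authors' deposited table). Its neighbour 2860 bp away, PXMP4, a peroxisomal membrane protein gene, was at 1.99 and 2.47 FPKM. On another unplaced scaffold, Zv9_scaffold3530:1160337-1165183 went from 37.2 to 158 FPKM (q = 0.000383 in the authors' deposited table). The 3 loci given here with a q were also called when adjusted over the table.

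The other 7 of the 10 largest rises were between 3.57-fold and 7.12-fold. One of them, chr19:41024011-41026962, lay 2855 bp from zmym4, which encodes a zinc finger protein, and went from 1.03 to 4.20 FPKM while zmym4 was at 38.1 and 39.7. It was called under the adjustment over the table as well (0.0146), while the other 6 were not (0.155 to 0.268). Of these 6, chr15:44565005-44584971 was the longest of the 10 at 19967 bp and went from 27.2 to 142 FPKM. The locus chr21:2761303-2763420 went from 1.16 to 5.002 FPKM, and the named locus si:rp71-1h20.3, only 522 bp away, was at 1.15 and 3.005. For 3 rises that were near 1 FPKM in control, the size depended on the value added. With 1 FPKM added to both values, the log2 change went from 2.109 to 1.475 at chr21:2761303-2763420. It went from 2.032 to 1.359 at chr19:41024011-41026962 and from 1.835 to 1.206 at chr25:26896161-26897574.

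Among the same loci, the largest fall was at chr6:22213498-22214102, which went from 32.5 FPKM in control to 5.21 in SU5402, 6.23-fold (q = 0.00189 in the authors' deposited table). The next, chr6:3874830-3875211, went from 92.3 to 16.3 FPKM, 5.68-fold. It lay 6495 bp from unc50, a Golgi membrane protein gene that was at 9.72 and 7.30 FPKM. The locus chr19:20674306-20681457, 1198 bp from the splicing regulator tra2a, fell 3.67-fold from 8.73 to 2.38 FPKM, while tra2a was at 134 and 138. These 3, and chr22:25138397-25139659 described below, were also called when adjusted over the table, and the other 6 of the 10 were not (0.0564 to 0.217).

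Other falls lay close to a named gene that was not called. Beside vps4a, an ATPase gene of membrane budding at 4.78 and 4.37 FPKM, chr25:36014311-36015058 went from 11.9 to 2.83. Beside ulk1b, an autophagy kinase gene at 13.2 and 11.8 FPKM, chr21:13037354-13038544 went from 10.1 to 2.93. Beside tomm5, a subunit of the mitochondrial import pore at 24.6 and 42.9 FPKM, chr14:46990939-46991549 went from 23.2 to 7.85. The gene and the locus thus differed in opposite directions in that last pair. The longest called locus without a name, chr5:6291873-6400118 of 108246 bp, fell 2.21-fold from 7.99 to 3.62 FPKM.

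Another 17 called loci were listed at 0 in 1 condition, 12 in control and 5 in SU5402, and no fold is given for them. The highest of the 12 was chr3:1011413-1011578, 166 bp long, at 105 FPKM in SU5402. The 3 neighbouring loci on chromosome 13 and others on chromosomes 14 and 19, described with the runs below, made up most of the rest. The highest of the 5 was chr5:1101370-1101472, the shortest called locus at 103 bp, listed at 606 FPKM in control (q = 0.0275 in the authors' deposited table, 0.183 adjusted over the table). The next, chr23:37325440-37326749, was 1310 bp long and listed at 165 FPKM in control, with 0.00591 when adjusted over the table. It lay between vwa5b1 and camk2n1b, an inhibitor of a calcium-dependent kinase. At chr13:4319507-4321072, 595 bp from the RNA exosome cofactor c1d (84.3 and 64.7 FPKM), the value was 16.9 in control. The other 2 were chr6:35417973-35418083, of 111 bp, at 122 FPKM in control, and chr1:31580897-31582693 at 3.28.

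**Figure D2:**
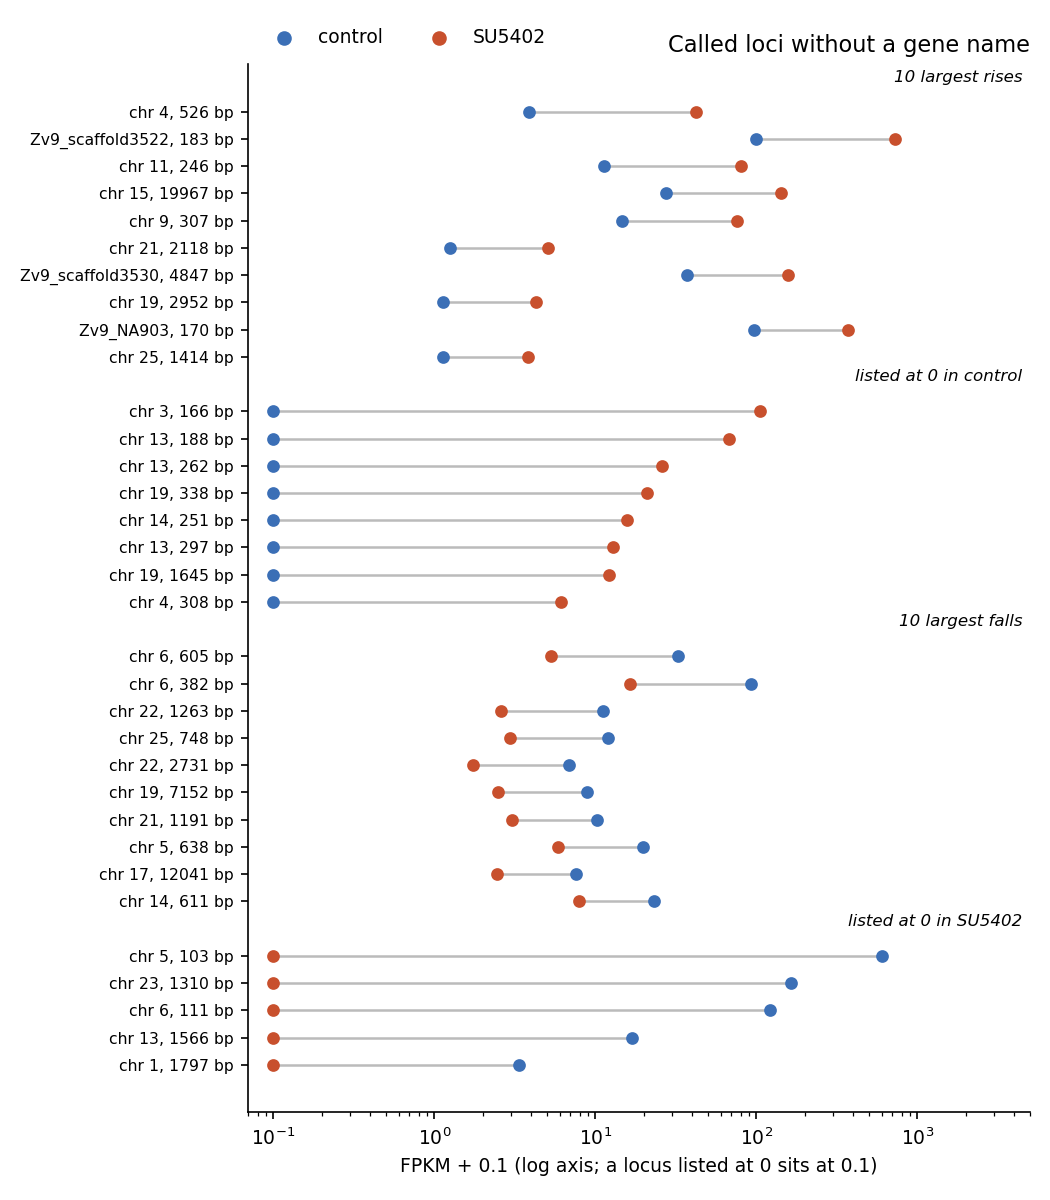
FPKM plus 0.1 (x axis, log) in control (blue) and SU5402 (red) of called loci. Each row is 1 locus named by its chromosome or scaffold and its length. Drawn are 8 of the 12 loci listed at 0 in control, those highest in SU5402, and all 5 listed at 0 in SU5402. Also drawn are the 10 largest rises and the 10 largest falls among loci that reached 1 FPKM in each condition. Within that limit the largest rise runs from 3.78 to 42.2 FPKM and the largest fall from 32.5 to 5.21. Called loci between 0 and 1 FPKM in 1 condition are not drawn. Among them are chr22:8592110-8596469, at 0.714 and 7.06 FPKM, and chr24:3248943-3251848, at 13.2 and 0.871. Values listed at 0 are drawn at 0.1.

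The highest unnamed loci were mostly very short, and most were higher in SU5402 without a call. Of the 8 tested loci with the highest mean, 7 were higher in SU5402 and 1 was called. The highest, chr2:51538042-51538171 of 130 bp, was at 1068 FPKM in control and 2125 in SU5402 (q = 0.132 in the authors' deposited table). It lay 606 bp from a locus named 5S_rRNA, the small ribosomal RNA transcribed by RNA polymerase III, which was listed at 0 in both. The called one, Zv9_NA874:6405-6669, lay 229 bp from another locus of that name, also at 0 in both, and went from 443 to 1001 FPKM. The one lower in SU5402 was chr4:31587886-31587992, 107 bp long, at 858 and 567 FPKM.

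The shift was larger in short loci. Of 537 tested unnamed loci under 1000 bp, 27 were called higher and 9 lower (6.70%), with a median log2 change of 0.34. Of 996 at 1000 bp or more, 47 were higher and 27 lower (7.43%), with a median of 0.12. Over all unnamed loci above 0, tested or not, SU5402 was the higher condition for 59.4% of 1450 short and 55.3% of 2171 long ones. The share called was thus similar in both length classes, while the median was larger in the short one.

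In finer classes the median log2 change was 0.95 for the 56 tested loci under 200 bp, 0.61 for 197 of 200 to 499 bp and 0.19 for 284 of 500 to 999 bp. From 1000 bp on, it lay between 0.08 and 0.15 in each of 4 classes. Named loci of the same lengths gave 0.04 for 25 tested loci of 200 to 499 bp and -0.13 for 59 of 500 to 999 bp. Only 4 named loci under 200 bp were tested. Over all unnamed loci above 0, tested or not, SU5402 was the higher condition for 67.5% of 77 under 200 bp, 64.1% of 398 of 200 to 499 bp and 56.8% of 975 of 500 to 999 bp. It was so for 54.3% to 57.4% in the 4 longer classes. Of the unnamed loci of 20000 bp or more, 5 of 233 (2.15%) were called. FPKM divides by a length that the authors' software corrects for fragment size, which weighs most on the shortest loci, and its part in the result was not tested.

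**Figure D3:**
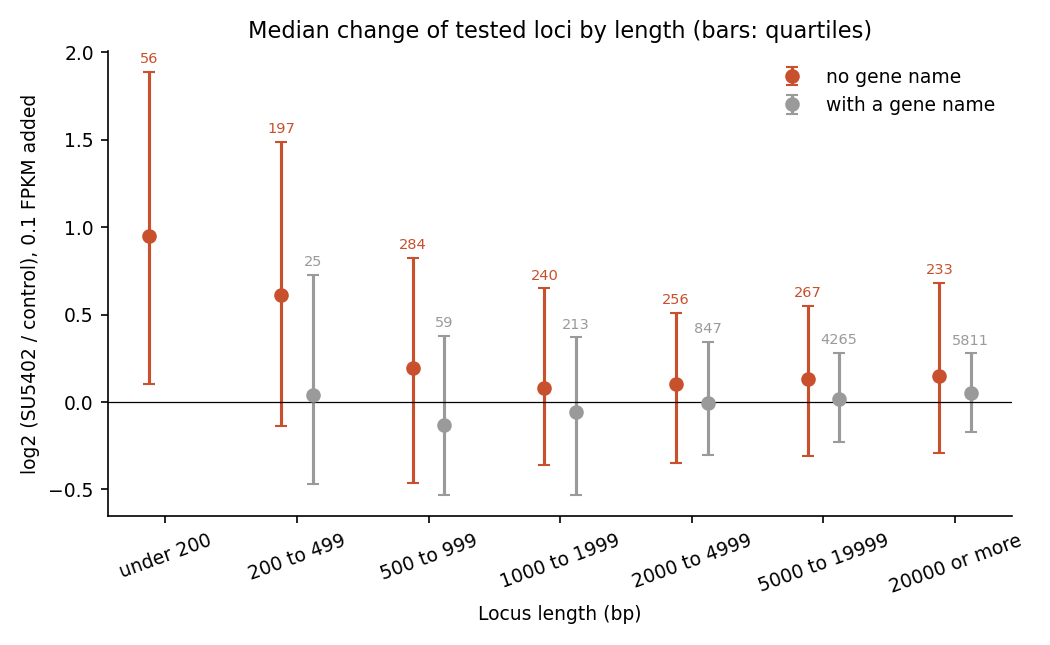
Median log2 ratio of SU5402 to control with 0.1 FPKM added (y axis) of tested loci by locus length (x axis), with bars from the lower to the upper quartile and the number of loci above each bar; red is loci without a gene name and grey loci with one, and classes under 20 loci are left out. The median of unnamed loci is 0.95 under 200 bp and between 0.08 and 0.15 from 1000 bp on.

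Among tested loci, the larger median of short ones was seen at every level of expression. In 7 classes of mean level, from under 2 FPKM to 100 FPKM or more, unnamed loci under 1000 bp had a larger median than longer ones in each. At 5 to 10 FPKM the medians were 0.29 for 114 short and 0.04 for 224 long loci, and at 100 FPKM or more they were 0.80 for 44 short and 0.25 for 19 long ones. Of the 63 tested unnamed loci at 100 FPKM or more, 81.0% were higher in SU5402, against 58.6% of 782 named loci at that level. By length, 86.4% of the 44 short unnamed ones and 68.4% of the 19 long ones were higher. Only 88 of all 11224 tested named loci were under 1000 bp, so the contrast with named loci does not separate length from the lack of a name.

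Calls differed between loci that stood alone and loci at a position shared with another row of the table. Of 1091 tested unnamed loci alone at their position, 66 were called higher and 26 lower (8.43%), with a median log2 change of 0.23. Of 442 at a shared position, 8 were higher and 10 lower (4.07%), with a median of 0.05. Over all unnamed loci above 0, tested or not, SU5402 was the higher condition for 57.6% of 2890 alone and 54.3% of 731 at a shared position. The shared ones fell into a pair of kinds. Where only unnamed rows shared the position, 18 of 252 tested rows (7.14%) were called, 8 higher and 10 lower, with a median log2 change of 0.02. Over all 377 such rows above 0, tested or not, SU5402 was the higher condition for 51.7%.

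Where the position was shared with a named gene, 0 of 190 tested rows were called by the authors' software, Cuffdiff. None of the 190 had a deposited p under 0.05, where 11.1% of all tested loci did, and the smallest was 0.0989 in the authors' deposited table. By the adjustment over the table the count was also 0. These 190 were not flat: 23.7% differed by more than 1 on the log2 scale, against 27.6% of unnamed loci alone at their position. Their median log2 change was 0.14. Over all 354 rows of this kind above 0, tested or not, SU5402 was the higher condition for 57.1%. The 372 rows of this kind, tested or not, lay at 278 positions with a median length of 39674.5 bp. The named rows at the same positions were called in 17 of 365 cases (4.66%). Reads at such a position are shared out between rows by the authors' software, and the part of that in the absence of calls was not tested.

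At 165 positions exactly 2 unnamed rows and no named row shared the coordinates, and 86 of these pairs had both rows tested. Both rows differed in the same direction in 53 of the 86 (61.6%). Of all 165 pairs, 14 had 1 row called and none had both, and in 12 of the 14 the other row differed in the same direction. Both rows were tested in 11 of the 14, and in the rest the other row was not tested. At chr2:58143110-58144018 the called row went from 10.4 to 32.0 FPKM and the other stood at 8.49 and 30.1. At chr22:25138397-25139659 the called row went from 11.1 to 2.49 FPKM and the other stood at 6.87 and 1.24.

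At chr24:3248943-3251848 the called row went from 13.2 to 0.871 FPKM, and the other was at 1.57 in control and listed at 0 in SU5402. At chr9:54145316-54145622 the called row went from 14.6 to 75.5 FPKM, while the more abundant row, at 410 and 1158, was not called. The rows of a pair thus mostly moved together where 1 was called. The exceptions were chr11:39946633-39947242, with 22.7 and 9.88 FPKM in the called row and 4.67 and 5.57 in the other, and chr20:47081835-47085028, with 84.5 and 53.6 in the called row and 3.85 and 4.88 in the other. Rows of a pair share reads and are not independent.

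Chromosome 4, which had the most tested unnamed loci, also had the most calls at the deposited q. Its long arm is known to be rich in repeats and in zinc finger and NLR immune gene copies and poor in other genes. It held 434 unnamed loci, more than any other chromosome, and of 149 tested, 11 were called higher and 1 lower (8.05%), a share near the 7.18% of all tested unnamed loci. Its median log2 change was 0.51, as was that of 52 tested unnamed loci on chromosome 19. Its 558 tested named loci had a median of 0.03 with 8 called higher and 8 lower. Over all its unnamed loci above 0, tested or not, 63.8% of 420 were higher in SU5402. The 11 loci called higher were at 0 to 4.79 FPKM in control and 2.33 to 42.2 in SU5402. Adjusted over the table, chromosome 4 had 4 calls, all higher, where chromosomes 13 and 19 had 5 each. Between 30 and 40 Mb of chromosome 4, 6 of 36 tested loci were called higher and 0 lower at the deposited q. Some of these 6 were successive loci only 206 or 418 bp apart. Copies that resemble each other can share reads, so single loci there are uncertain.

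The next by calls were chromosomes 14 and 5, with 8 each, and 13 and 21, with 7 each. On chromosome 14, 7 of 51 tested unnamed loci were higher and 1 lower (15.7%), and on chromosome 5, 5 of 111 were higher and 3 lower (7.21%). On chromosome 13, 4 of 47 were higher and 3 lower (14.9%), and on chromosome 21, 5 of 55 were higher and 2 lower (12.7%). The share called was thus larger on chromosomes 14, 13 and 21 than on chromosome 4, from few loci and with no test of the difference. Neighbouring loci were counted separately. The calls on chromosome 13 included 3 loci within 1553 bp, and those on chromosome 14 included 2 loci that lay 285 bp apart. Adjusted over the table, chromosome 13 had 5 calls and chromosomes 14, 5 and 21 had 2 each. On unplaced scaffolds, 9 of 130 were higher and 3 lower. The median log2 change was above 0 on 20 of the 25 chromosomes and lowest on chromosome 6, at -0.19, where 1 locus was called higher and 4 lower.

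**Figure D4:**
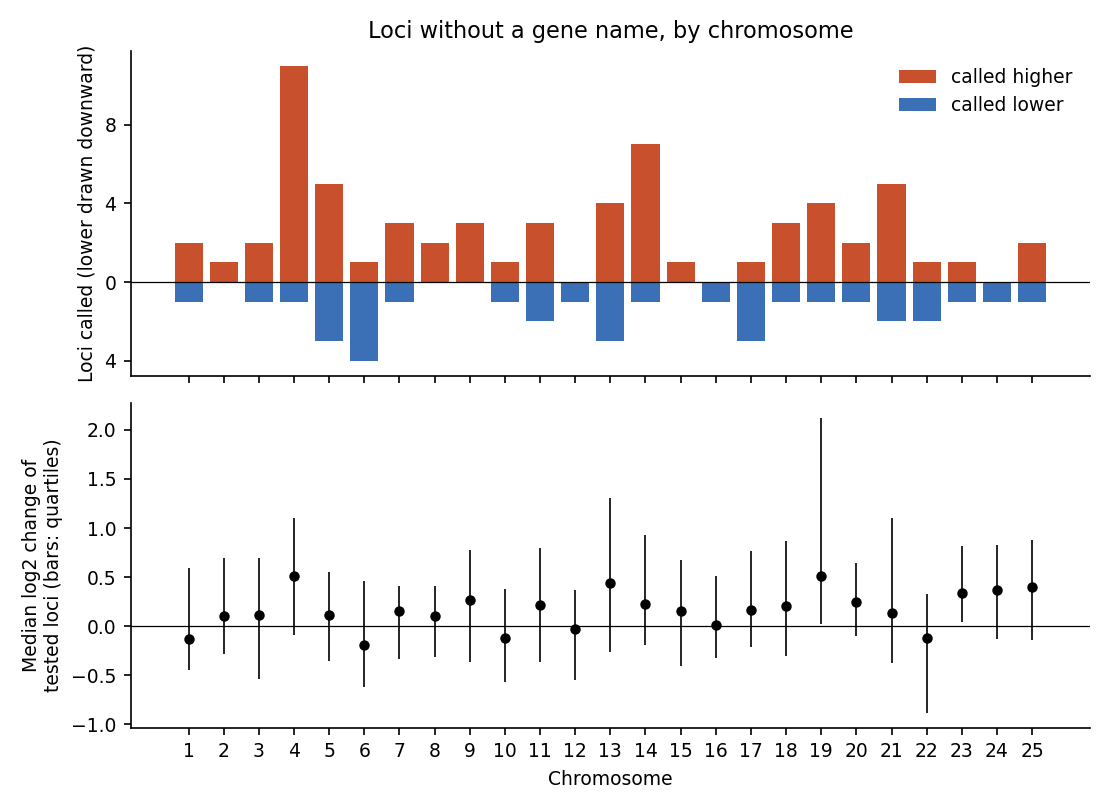
Upper panel, number of loci without a gene name called higher (red, upward) or lower (blue, downward) in SU5402 on each of the 25 chromosomes; lower panel, the median log2 change of tested unnamed loci with bars from the lower to the upper quartile. Chromosome 4 has the most calls at the deposited q, 11 higher and 1 lower, and the median is above 0 on 20 chromosomes.

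Some unnamed loci were near 0 in control embryos and present in SU5402 embryos. Near 0 was taken as under 0.2 FPKM and present as 1 FPKM or more, limits set after the values were seen. Of all 3861 unnamed loci, 138 (3.57%) were present in SU5402 only and 51 (1.32%) in control only. Of the 29982 named loci, 88 (0.294%) were present in SU5402 only and 86 (0.287%) in control only. Most had not been tested. Of the 138 and the 51, 29 and 8 were tested, and 12 and 5 were called. Of the named ones, 11 and 8 were tested, and 3 and 1 were called. These limits pick loci with a large difference, so such counts cannot be set against the 5.64% called over all tested loci. At an exact 0 there were 101 and 40 unnamed loci, against 73 and 59 named ones.

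Some loci of this class sat side by side. Runs of 3 or more rows, each within 20000 bp of the next, numbered 8 with 36 rows at 32 positions for those present in SU5402 only, and 1 with 3 rows at 3 positions for those present in control only. Counting a shared position once, 7 of the 8 had 3 or more positions. Named loci gave 0 runs in either direction at these limits. With control under 0.5 FPKM they gave 2 runs present in SU5402 only, where unnamed loci gave 10. The values of the 2 libraries behind each condition are not given, so a run that comes from 1 library or 1 clutch cannot be told apart from one in both.

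The longest run had 7 loci at chr22:18716003-18741142, each at 0 to 0.164 FPKM in control and at 1.25 to 4.63 in SU5402, and none of them was tested. The named locus 60 bp before it, si:ch211-212d10.2, was at 0.559 and 5.92 FPKM (q = 0.0666 in the authors' deposited table). A second run on that chromosome, chr22:28297811-28310118, had 6 loci at 0 to 0.172 FPKM in control and 1.38 to 4.92 in SU5402, also not tested. The named loci beside it were also higher in SU5402 and not tested. CR547131.1, 1358 bp before it, was at 0 and 2.18 FPKM, and CR547131.2, 11588 bp after it, at 0.728 and 2.31. The runs on chromosome 22 were at a low level throughout. The run in the other direction, chr5:67012581-67016154, had 3 loci at 1.66 to 4.65 FPKM in control, all listed at 0 in SU5402 and not tested. The unplaced scaffold Zv9_NA595, which has no named locus, held a run of 4, at 0 to 0.0638 FPKM in control and 1.80 to 3.87 in SU5402. Of these, Zv9_NA595:4721-6064 was called. This run was interrupted: its span held 7 unnamed loci, and 5 of the 7 were higher in SU5402.

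On chromosome 19 there were runs on both sides of rpl11, a gene for a protein of the large ribosomal subunit. The first, chr19:45307157-45316491, lay between eef1a1l1, which encodes the elongation factor that brings tRNAs to the ribosome, and rpl11. Its 4 rows, at 3 positions, were at 0 to 0.165 FPKM in control and at 20.8, 7.53, 3.23 and 12.02 in SU5402, and the first and last were called (both q = 0.000383 in the authors' deposited table). In the RefSeq annotation of GRCz12tu, a newer build used here for gene order only, 2 protein-coding genes stand between eef1a1l1 and rpl11: eef1a1l2, a second copy of the elongation factor gene, and LOC100536487.

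The flanking genes themselves were high and not called: eef1a1l1 was at 1527 and 1330 FPKM and rpl11 at 123 and 96.6. Past rpl11, the second run, chr19:45342889-45381419, had 5 rows at only 2 positions, listed at 0 in control and at 1.48 to 17.7 FPKM in SU5402. Of these, 4 shared the position of TCEB3C, a gene named after a subunit of elongin, and none was called; TCEB3C was at 117 and 139 FPKM. Near-identical copies of the elongation factor gene can share reads, so the level of a row there is uncertain.

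On chromosome 13, 3 neighbouring loci within 1553 bp were all called. They lay at chr13:48324553-48324849, chr13:48325093-48325354 and chr13:48325918-48326105, were listed at 0 in control, and were at 12.7, 25.8 and 67.7 FPKM in SU5402. On chromosome 14, chr14:48551475-48553954 and chr14:48554240-48554490 were listed at 0 in control and called at 3.41 and 15.7 FPKM in SU5402, and a locus past them was at 0 and 1.29, not tested. The named locus zgc:194285, 1546 bp before them, was at 46.7 and 64.8 FPKM and not called. In all, 6 pairs of successive called unnamed loci, 2 of them among the 3 loci on chromosome 13, lay within 5000 bp of each other, and in each pair both were higher in SU5402.

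A further run lay beside the mir430 cluster of chromosome 4, whose microRNAs are among the first zygotic transcripts and clear maternal messenger RNA. Of 51 rows named mir430 in the cluster, chr4:28000732-28017085, 50 were listed at 0 in both conditions. Such a 0 does not tell whether mir430 was transcribed. Of all 2538 named loci under 200 bp, 2525 were listed at 0 in control and 2520 in SU5402. The run had 4 loci at chr4:28025344-28051175, at 0 to 0.160 FPKM in control and 1.46 to 3.47 in SU5402. Within 150000 bp after the cluster lay 7 unnamed loci, these 4 among them. The 7 were at 0 to 0.563 FPKM in control and 1.21 to 3.47 in SU5402, all higher in SU5402. One of the 7 was tested and none was called. Before the cluster lay 2, at 1.46 and 2.47 FPKM for chr4:27933298-27933913 and 3.89 and 1.18 for chr4:27936418-27940826. The nearest of the 7, chr4:28022572-28025290, was 5486 bp from the cluster and stood at 0.293 and 1.58 FPKM.

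**Figure D5:**
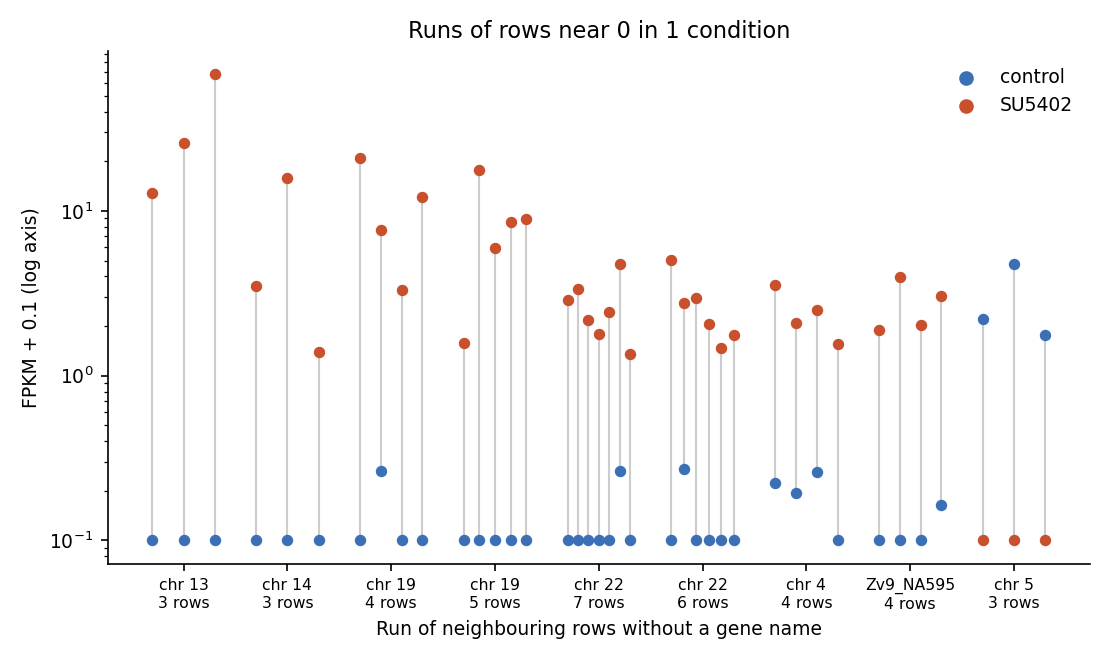
FPKM plus 0.1 (y axis, log) in control (blue) and SU5402 (red) of each row in the 9 runs of rows near 0 in 1 condition (x axis, by chromosome or scaffold and number of rows, some of which share a position). In 8 runs every row is under 0.2 FPKM in control and at 1 FPKM or more in SU5402, and in the run on chromosome 5 the order is the other way; values listed at 0 are drawn at 0.1.

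Many unnamed loci lay close to a named one. Of the 3861, 372 overlapped a named row and 2032 lay within 5000 bp of one, overlaps included. Of the 110 called, 46 lay within 5000 bp of a named locus, 57 farther away and 7 on a scaffold with no named locus. Both the unnamed locus and its nearest named locus within 5000 bp were tested in 636 cases. The unnamed one was called in 34 of these, the named one in 40, and both in 2, each time in the same direction. Over all tested loci 5.64% were called. Whether both were called more often than the separate counts would give was not tested. The direction was the same in 354 of the 636 (55.7%), and Pearson's r across these pairs, which share libraries and may share reads, was 0.08.

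In one of the 2 cases, chr3:58795594-58798348 fell from 2.61 to 0.813 FPKM (q = 0.0180 in the authors' deposited table). It lay 923 bp from notum1a, an enzyme gene whose secreted product inactivates Wnt ligands, which fell from 7.06 to 4.02 (q = 0.0151 in the authors' deposited table). In the other, chr14:21404-22477 rose from 33.8 to 70.0 FPKM (q = 0.0270 in the authors' deposited table). It lay 2220 bp from BOD1L1, known in human cells for protecting replication forks, which rose from 23.8 to 36.3. None of the 4 was called when adjusted over the table (0.120 to 0.181).

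Near genes of FGF signalling and early patterning there was 1 call. Of 54 such genes listed (FGF feedback, organizer, neural, BMP, Nodal and mesoderm genes, chosen with earlier results of these data known), 53 were in the table and 4 had an unnamed locus within 5000 bp. These were 7 loci, of which 4 were tested and 1 was called. The called locus, chr14:525792-527037, lay 3129 bp from spry1, a feedback inhibitor of FGF signalling. It went from 11.6 FPKM in control to 22.0 in SU5402 (q = 0.00616 in the authors' deposited table, 0.0643 adjusted over the table). The gene spry1 was at 1.61 and 0.0605 FPKM and was not tested. The locus and the gene thus differed in opposite directions.

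At the position of vox, a ventral repressor gene at 68.0 and 62.4 FPKM, 3 unnamed rows were tested and not called. The locus chr13:5542183-5544443 near spred2b, another inhibitor of the pathway, was at 0.135 and 0.0869 FPKM, and 2 rows near frs2b, an adaptor of FGF receptors, were at 1.65 to 2.11 FPKM, none of them tested.

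For 34 of the 110 called loci, both flanking named genes could be found in the GRCz12tu annotation, with a limit of 1000000 bp on the gap between them. This is a wide limit, and as many as 17 genes stood between the flanking ones, at chr5:71306455-71357847. In 11 of the 34 no gene stood between the flanking genes there. In 14 at least 1 long noncoding RNA gene did, and in 20 at least 1 protein-coding gene. Positions were not carried over between builds, so this says which genes stand between the flanking ones, not that a locus is one of them. Between tra2a and igf2bp3, an RNA-binding protein gene, no gene stood where the fallen chr19:20674306-20681457 lies on Zv9.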

How the data were processed

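RNA-seq of 4 samples, 2 per condition, was used as 1 table of 33843 loci. The submitters' processing notes name Cufflinks, Cuffdiff, TopHat2 and Picard and the build Zv9 (danRer7), with versions, settings and strand not given in the sources used here. The authors' FPKM, per the file headers, is 1 value per condition, pooled over both samples, and the deposited log2 column is the ratio of SU5402 to control. It differed from the log2 ratio of FPKM by under 0.001 for 12714 of the 12715 tested loci above 0 in both conditions. Cuffdiff's deposited score (its test statistic) was left out. The deposited p-value and q-value are the authors', and a q of at most 0.05 is their call. IDs run to 35868, and 2025 of the numbers have no row in the table used here, which may thus be held only in part.

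From these, with Python 3.11.15 and pandas 2.3.3, counts by length (limit 1000 bp), position, chromosome and neighbour within 5000 bp were made, and the deposited p-values were adjusted over the 12757 tested loci at hand. That value was above the deposited q for all 720 called loci, and over a fuller table it could differ. At chr15:44565005-44584971, for example, the deposited q was 0.04996 and the adjusted value 0.268. The set of tests behind the deposited q is not given in the sources used here. The share of false calls at a deposited q of 0.05 is thus not known for these loci. Starts were raised by 1, to count from 1. No test over samples could be run, since there is no value per sample, no count and no depth, and therefore no counting interval. The adjustment of p-values and the search for the nearest named locus were tested on simulated data, and the other steps were not. The loci, lists and classes were chosen with earlier results of these data known.

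Loci were named by a rule: the 10 largest rises and falls among called loci reaching 1 FPKM in each condition, up to 8 called loci listed at 0 in control and up to 6 listed at 0 in SU5402, the 8 highest, those near a listed gene, the longest and the shortest called, the 5 chromosomes with the most calls, and their near genes. Pairs at a shared position, runs, loci beside the mir430 cluster, the region around rpl11 and the calls shared with notum1a and BOD1L1 were chosen after the values were seen.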

Additional observations from a re-analysis of the deposited data

How the results depend on the processing

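The values are 2 pooled numbers per locus, so neither replicate spread nor depth can be read from them, and a low level or a 0 may be a matter of depth. No paired analysis was possible because the table holds 1 pooled value per condition, and for the same reason no replicate could be left out. Adjusted over the table, calls among unnamed loci went from 110 to 38, those under 1000 bp from 36 to 15, those of 1000 bp or more from 74 to 23, those at a shared position from 18 to 5 and those alone from 92 to 33. At a deposited q of at most 0.01 the same 5 counts were 52, 19, 33, 7 and 45. More loci were called higher than lower in each of these counts except those at a shared position, with 2 higher and 3 lower adjusted over the table and 2 higher and 5 lower at the q of 0.01. With the limit of the short class at 500 bp, 21 short loci were called, and at 2000 bp, 57. The count of loci called together with their neighbour was 2, and became 1 within 1000 bp and 0 adjusted over the table. The limits on loci near 0 were added after the data were seen. With near 0 taken as under 0.5 FPKM, the 138 of 3861 unnamed loci became 227. Of the 29982 named loci, 196 were then in SU5402 only and 192 in control only. With 2 FPKM or more in SU5402, the 138 became 71 and the runs went from 8 to 5. The limits on length, distance and level take in more or fewer loci by construction, while the adjustment over the table and the q of 0.01 change only how a call is made on the same loci. The median log2 change stayed between 0.15 and 0.17 without a pseudocount, with 1 FPKM added, with 1 FPKM required, without scaffolds and without chromosome 4. Of the 33 loci named as the largest rises and falls or as called and listed at 0, 18 kept their call adjusted over the table and 15 did not.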
